A study of Mus musculus with 24 samples.

Results

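The small proline-rich and cornified envelope genes were 10 genes: Sprr1a, Sprr1b, Sprr2b, Sprr2d, Sprr2e, Sprr2f, Sprr2g, Sprr2h, Ivl and Gjb6. They were taken as every array probe whose transcript accession belongs to 1 of them, which gave 11 probes (2 for Ivl), against 27958 genes or unnamed probe targets that were bright enough to test. RNA came from 24 whole kidneys of age-matched male mice, labeled as young adults and, by the study's methods, only a little past weaning, 6 from mgb+/+ controls and 18 from mgb-/- (megabladder) mice, of which 7 were graded as mild, 5 as moderate and 6 as severe hydronephrosis. The megabladder mouse carries an inherited defect of the bladder muscle wall, so that urine drains poorly and the renal pelvis widens; no kidney was obstructed by surgery, and the grade describes each kidney rather than a set duration of obstruction. Each kidney was read on 1 single-color array, and the labels do not tie a kidney to a mouse, so that 2 kidneys of 1 animal cannot be told from kidneys of different animals and p-values measure the spread between kidneys.

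The cornified envelope is a protein shell cross-linked by transglutaminases beneath the plasma membrane of stratified epithelial cells. Small proline-rich (SPRR) proteins are short cross-bridging precursors of that shell, and involucrin (Ivl) is the scaffold to which other precursors are joined. Connexin 30 (Gjb6) is a gap junction subunit rather than an envelope protein, and is found in epidermis, in other stratified epithelia and in some nephron segments. Sprr and Ivl genes lie together in the epidermal differentiation complex, are known from squamous epithelia and also appear in injured simple epithelia and in the urothelium, the stratified lining of the renal pelvis, ureter and bladder. Kidney parenchyma itself is not a cornifying tissue.

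The stretches of DNA just upstream of the start sites are shown for a member that rose with disease (Sprr2f), for a close relative seen in few kidneys (Sprr2e), for one at background throughout (Sprr2b) and for Sprr1a and Ivl. They come from RefSeq (build GRCm38.p6), which matched 9 of the 10 members; Sprr2g had no entry. Capitals mark the AP-1 motif TGANTCA and the octamer ATTTGCAT, both searched on both strands in the 250 bases before the start and chosen after the sequences were seen; the matches of the 2 motifs do not overlap in the stretches shown.
Sprr2f, plus strand, chr3:92364982-92365090: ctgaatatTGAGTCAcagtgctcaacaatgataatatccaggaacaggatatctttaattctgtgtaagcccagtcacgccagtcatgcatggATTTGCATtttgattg
Sprr2e, plus strand, chr3:92351942-92352050: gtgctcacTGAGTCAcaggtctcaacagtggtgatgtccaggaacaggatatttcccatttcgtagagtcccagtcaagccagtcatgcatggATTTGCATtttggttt
Sprr2b, plus strand, chr3:92316502-92316612: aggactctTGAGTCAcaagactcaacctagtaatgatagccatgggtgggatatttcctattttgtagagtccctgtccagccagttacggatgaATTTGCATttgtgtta
Sprr1a, minus strand, chr3:92485982-92486035: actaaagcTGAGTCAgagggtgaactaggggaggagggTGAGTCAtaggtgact
Ivl, minus strand, chr3:92573836-92573859: ttatcagaTGACTCAgaaaggaag

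All 5 Sprr2 windows held both motifs, with the octamer between 108 and 112 bases before the start. Sprr2e and Sprr2f shared 85 of the 109 bases of these stretches (78.0%), and Sprr2d and Sprr2e shared 104 (95.4%). The AP-1 motif stood in 8 of the 9 member windows and in 6.75% of all 32851 RefSeq windows of the same length, and the octamer in 5 of 9 against 1.60%. Gjb6 held neither, and was the single member with AACNGGTT, the motif of Grainyhead-like factors, which 1.79% of all windows hold. These are matches of letters only: Sprr2b, at background on every array, held the same pair as Sprr2f.

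A level below is the log2 of the processed signal minus the 75th percentile of its array, so that 0 means a spot as bright as that percentile; levels were compared between kidneys and never between probes. The share of probes well above background ranged from 55.1% to 70.7% over the 24 arrays, the lowest being severe kidney 4, whose array also had the most spots flagged as outliers (660, where the fewest on an array were 102). Kidney-defining genes were bright in every group, with the summed linear signal of 7 of them between 364.3 and 897.8 times the 75th percentile. Sprr1a, Sprr2f, Sprr2g, Ivl and Gjb6 were well above background on at least 5 arrays and were tested. Sprr1b, Sprr2b, Sprr2d, Sprr2e and Sprr2h were not, and their values are given as a description. In whole tissue, more cells of a type and more RNA per cell cannot be told apart.

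**Figure D1:**
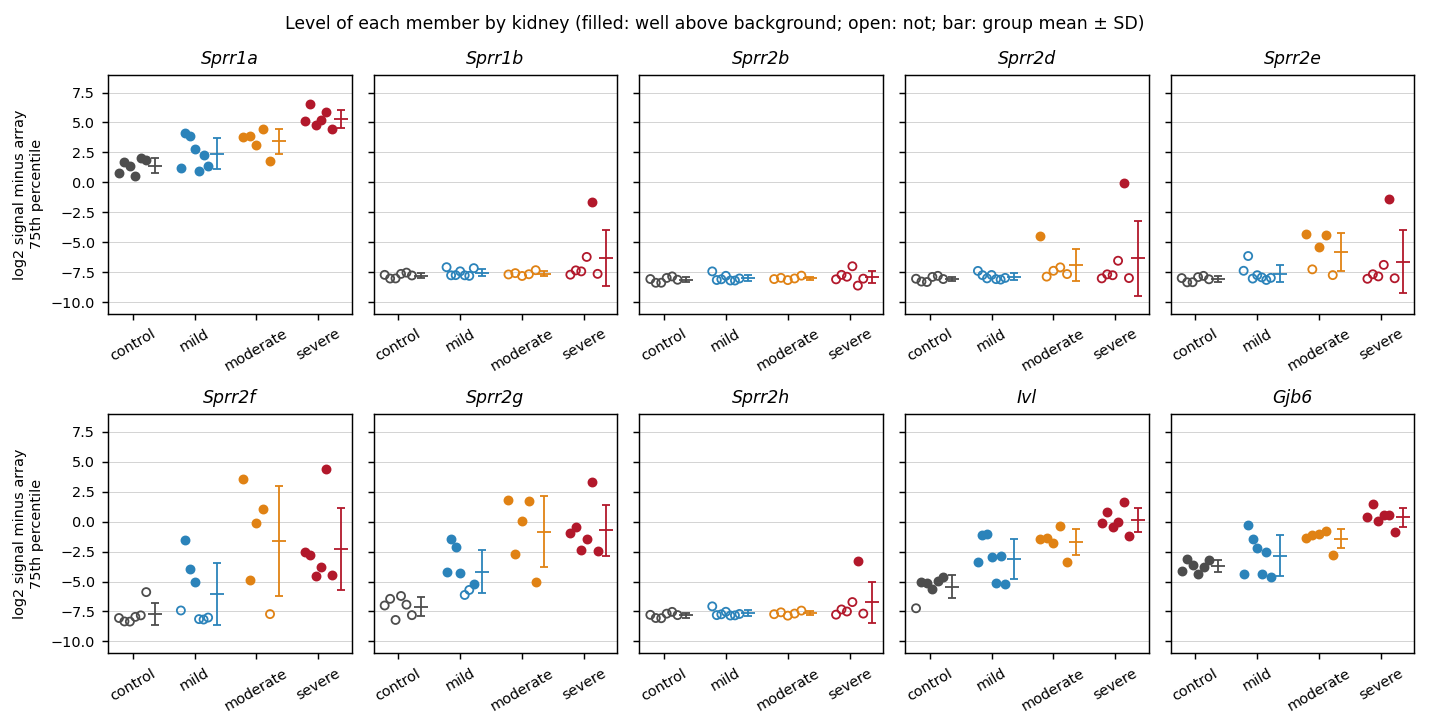
Level of each of the 10 genes (log2 processed signal minus the array's 75th percentile) in each of the 24 kidneys by group; filled points were well above background, open points were not, and bars give the group mean ± SD. Sprr1a, Ivl and Gjb6 step up from control to severe, Sprr2f and Sprr2g spread widely within the moderate and severe groups, and severe kidney 5 alone lifts Sprr1b and Sprr2h.

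Sprr1a was well above background in all 24 kidneys. Its level in controls had a lowest value of 0.57, a median of 1.55 and a highest of 2.05, in mild kidneys 0.91, 2.32 and 4.13, and in severe kidneys 4.45, 5.15 and 6.50. The 5 moderate kidneys stood at 3.81, 3.85, 3.15, 4.46 and 1.80. Severe kidneys lay above every control and every mild kidney, whereas 3 of 7 mild kidneys lay within the control range and 1 moderate kidney did. Group means were 1.39 ± 0.60 (SD, n = 6) in controls, 2.37 ± 1.30 (n = 7) in mild, 3.42 ± 1.01 (n = 5) in moderate and 5.31 ± 0.74 (n = 6) in severe kidneys. Sprr1a rose 15.1-fold in severe kidneys over controls (log2 difference 3.92, SE 0.54, limma adjusted p = 0.000168) and 7.69-fold over mild kidneys (2.94, SE 0.52, adjusted p = 0.00725).

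Ivl was measured by 2 probes, which correlated with r = 0.99 over the 18 mgb-/- kidneys. The dimmer probe was well above background in 3 of 6 controls and in every mgb-/- kidney. The brighter probe, used for the gene, was so in 5 of 6 controls and in every mgb-/- kidney. Its lowest, median and highest levels were -7.23, -5.08 and -4.58 in controls, -5.19, -2.95 and -1.0 in mild kidneys, and -1.23, -0.03 and 1.61 in severe kidneys. Moderate kidneys gave -1.47, -1.40, -1.79, -0.36 and -3.38. All moderate and severe kidneys lay above all controls, and 5 of 7 mild kidneys did. Group means went from -5.43 ± 0.94 (SD, n = 6) in controls to -3.10 ± 1.69 (n = 7), -1.68 ± 1.09 (n = 5) and 0.12 ± 0.99 (n = 6) in mild, moderate and severe kidneys. Ivl rose 5.02-fold in mild kidneys (log2 difference 2.33, SE 0.66, adjusted p = 0.0395), 13.4-fold in moderate (3.74, SE 0.72, adjusted p = 0.0197) and 46.8-fold in severe kidneys (5.55, SE 0.69, adjusted p = 8.67e-05), each against controls in limma. These sizes depended on the processing. With normexp, another background correction, the mild difference was 1.08 (limma adjusted p = 0.114). In the authors' normalized table it was 1.33 (limma adjusted p = 0.095), and the call was lost in both. Alternative settings gave 1.94 to 4.17 in moderate and 3.46 to 5.55 in severe kidneys.

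Gjb6 was well above background in all 24 kidneys. Its lowest, median and highest levels were -4.39, -3.71 and -3.10 in controls, -4.61, -2.56 and -0.29 in mild kidneys, and -0.87, 0.45 and 1.48 in severe kidneys. Moderate kidneys gave -1.39, -1.14, -1.06, -0.76 and -2.76, all above every control. Mild kidneys overlapped the controls, and severe kidneys lay above all controls and, but for 1, above all mild kidneys. The means were -3.72 ± 0.50 (SD, n = 6), -2.83 ± 1.68 (n = 7), -1.42 ± 0.78 (n = 5) and 0.35 ± 0.77 (n = 6) in the order control, mild, moderate, severe. Gjb6 rose 16.7-fold in severe kidneys over controls (log2 difference 4.06, SE 0.60, limma adjusted p = 0.000312) and 9.06-fold over mild kidneys (3.18, SE 0.58, adjusted p = 0.00902).

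No control reached well above background for Sprr2f, against 3 of 7 mild, 4 of 5 moderate and all 6 severe kidneys. Control levels ran from -8.34 through a median of -8.00 to -5.88, and mild levels from -8.17 through -7.42 to -1.52. The moderate kidneys stood at 3.59, -4.87, -0.11, 1.02 and -7.72. The severe kidneys had a lowest level of -4.52 and a median of -3.31, with severe kidney 5 at 4.43. Moderate kidneys 1, 3 and 4 and severe kidney 5 therefore lay above every other kidney, and the moderate group spanned almost the whole range. Sprr2f was at least 11.7-fold higher in severe kidneys than in controls (means -2.28 ± 3.39, SD, n = 6, and -7.73 ± 0.93, n = 6; limma adjusted p = 0.0323). This bound sets the control mean no lower than the dimmest signal well above background on each array. It holds for the main processing only. With normexp, another background correction, the log2 difference was 2.36 (limma adjusted p = 0.118). In the authors' normalized table it was 2.73 (limma adjusted p = 0.132), and the call was lost in both. The call rested on single kidneys: without severe kidney 5 the log2 difference of 5.45 (SE 1.68) fell to 4.11 (adjusted p = 0.0801), and it was also lost without control 1, 2, 3 or 4 or severe 1 or 2. Moderate kidneys were at least 18.5-fold above controls by the same bound, but with SDs of 4.59 and 0.93 the difference did not pass (6.11, SE 1.77, adjusted p = 0.0782).

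Sprr2g, which RefSeq lists under a noncoding transcript accession, likewise reached that mark in 0 of 6 controls and in 5 of 7 mild, all 5 moderate and all 6 severe kidneys. Its levels ran from -8.21 through a median of -6.97 to -6.21 in controls, from -6.12 through -4.27 to -1.49 in mild kidneys and from -2.44 through -1.19 to 3.27 in severe kidneys. Moderate kidneys gave 1.79, -2.69, 0.02, 1.76 and -5.07. All 5 moderate and all 6 severe kidneys lay above all 6 controls, while 2 of the 7 mild kidneys were, like the controls, not above background and have no order against them. The means were -7.10 ± 0.77 (SD, n = 6) in controls, -4.17 ± 1.76 (n = 7) in mild, -0.84 ± 2.99 (n = 5) in moderate and -0.73 ± 2.11 (n = 6) in severe kidneys. Sprr2g was at least 31.8-fold higher in moderate (limma log2 difference 6.26, SE 1.15, adjusted p = 0.0153) and at least 34.4-fold higher in severe kidneys than in controls (6.37, SE 1.10, adjusted p = 0.00122). These sizes depended on the background correction: with normexp the log2 difference was 3.13 in moderate kidneys, where the call was lost (adjusted p = 0.0573), and 2.94 in severe kidneys, where it held (adjusted p = 0.013). The mild kidneys were at least 3.17-fold higher, with 5 of 7 measured above background, and did not pass (2.93, SE 1.06, adjusted p = 0.103).

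The other 5 members were at or near background in almost every kidney. Sprr2e was well above background in moderate kidneys 1, 3 and 4 and severe kidney 5, at -4.31, -5.37, -4.42 and -1.35, and in no other kidney. Sprr2d was above background in moderate kidney 1 (-4.50) and severe kidney 5 (-0.06). Sprr1b, the second of the Sprr1 genes, and Sprr2h were above background in severe kidney 5 alone, at -1.66 and -3.31, where the other 5 severe kidneys reached no more than -6.23 and -6.71. Sprr2b stayed between -8.62 and -7.01 and was never above background. The 4 kidneys in which any of these genes could be measured were the same 4 in which Sprr2f and Sprr2g were brightest. Fitted without the filter on dim probes, none of the 5 passed in any of the 7 comparisons; the lowest unadjusted p was 0.0191 (Sprr2e, moderate against control, adjusted p = 0.236). No probe or transcript sequence was used here, so how much of 1 gene's transcript another gene's probe reads was not tested. The Sprr2b probe was at background on the array where Sprr2f and Sprr2d were brightest. That value covers this probe alone and does not bear on those of Sprr2d, Sprr2e and Sprr2h.

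A difference was called where the limma adjusted p over all 27958 genes was under 0.05 and the change 2-fold or more. Severe kidneys against controls gave the most calls, with 5 of 10 members higher, where 2.99% of all genes tested were. In the same comparison, 5 of 10 members had every severe kidney above every control, as had 2.87% of all genes. Sprr2f and Sprr2g, above background in 0 of 6 controls, passed the filter through mgb-/- kidneys alone, so their calls are not independent of the filter. With only probes above background on all 24 arrays, 2 members (Sprr1a and Gjb6) were called in severe kidneys. All mgb-/- kidneys together gave 4 of 10 members higher (Sprr1a, Sprr2g, Ivl and Gjb6) against 1.82% of all genes. Of these 4, Gjb6 was lost with quantile normalization (adjusted p = 0.0519) and Sprr2g with normexp (log2 difference 2.17 in place of 5.00, adjusted p = 0.0533). Sprr2f missed in that comparison (log2 difference 4.17, SE 1.55, adjusted p = 0.0732). Moderate kidneys against controls gave 2 of 10 (Sprr2g and Ivl) against 0.529%, and mild kidneys against controls 1 of 10 (Ivl) against 1.15%. No member was lower in any comparison.

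**Figure D2:**
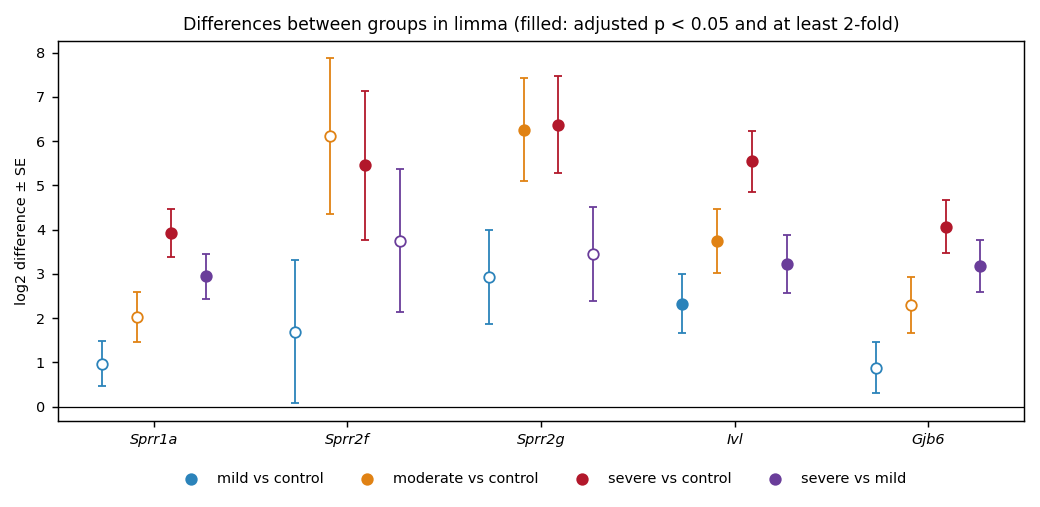
Log2 difference ± SE between groups for the 5 tested genes in limma; filled points met both thresholds given in the text, and no control was above background for Sprr2f or Sprr2g. All 5 passed in severe against control kidneys (differences from 3.92 to 6.37), and Sprr1a, Ivl and Gjb6 also in severe against mild kidneys.

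Several of these calls were close to the threshold. The call of Ivl in mild kidneys was lost in 11 of the 24 fits that left out 1 kidney, with adjusted p from 0.0256 to 0.101. In moderate kidneys, Sprr2g and Ivl were lost without moderate kidney 1 or 4 (adjusted p up to 0.0656 and 0.0709), and without moderate kidney 5 all 5 tested members passed. In all mgb-/- kidneys, Gjb6 was lost without any 1 of the 6 controls (adjusted p up to 0.0815) and Sprr1a without control 1, 3 or 4 (up to 0.0709).

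Between the grades themselves, severe kidneys had 3 of 10 members higher than mild kidneys (Sprr1a, Ivl and Gjb6), where 0.454% of all genes tested were higher. Sprr1a was the single member with every severe kidney above every mild one, a pattern held by 0.497% of all genes. Ivl was 9.33-fold higher (log2 difference 3.22, SE 0.66, adjusted p = 0.0203), a call lost without mild kidney 5 or 7 or severe kidney 2 or 5 (adjusted p up to 0.0789) and with slide as a block (adjusted p = 0.0581). Sprr2f and Sprr2g were higher by 3.75 (SE 1.62, adjusted p = 0.394) and 3.44 (SE 1.06, adjusted p = 0.191) and did not pass. All 3 calls were lost when severe and mild kidneys were fitted without the other groups (adjusted p = 0.0787, 0.139 and 0.123 for Sprr1a, Ivl and Gjb6). They were also lost when both severe kidneys 4 and 5 were left out (adjusted p = 0.0601, 0.13 and 0.0697 for Sprr1a, Ivl and Gjb6), an exclusion chosen after seeing the data. With moderate against mild kidneys 0 of 10 members and 0% of all genes were called, with 3 members and 6.67% of all genes at an unadjusted p under 0.05 and Sprr2g lowest at 0.00689; limma with array weights called Sprr2f and Sprr2g there. With severe against moderate kidneys again 0 of 10 were called, against 0.00358% of all genes, with 3 members and 10.4% of all genes at an unadjusted p under 0.05 and Sprr1a lowest at 0.00276. In that last comparison the log2 differences were 1.90, 1.81 and 1.77 for Sprr1a, Ivl and Gjb6, but -0.66 for Sprr2f and 0.11 for Sprr2g.

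The arrays lay on 3 slides that each held all 4 groups, so that each difference could be read within a slide. Within slides, severe kidneys exceeded controls by 3.29 to 5.83 for Sprr1a, 4.40 to 7.24 for Ivl and 3.45 to 5.74 for Gjb6. For Sprr2g and Sprr2f, with no control above background, only the bound described above can be given, and for the main processing alone. The 3 slides held 1, 2 and 3 severe kidneys and 2 controls each. By that bound, severe kidneys were at least 39.5-, 76.1- and 20.4-fold higher in Sprr2g, and at least 7.56-, 54.4- and 5.15-fold higher in Sprr2f. These sizes depend on the processing: over all slides, normexp gave log2 differences of 2.94 for Sprr2g and 2.36 for Sprr2f. By the same bound, the mean of moderate kidneys 1 and 4 was at least 262-fold above the controls of their slide in Sprr2f. Moderate kidney 3, alone on its slide, was at least 57.6-fold above. On the slide with the other 2 moderate kidneys, of which 1 was above background, their mean did not exceed the bound.

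The uroplakins, which form the plaques of the urothelial surface, changed in the same order. Their 4 genes (Upk1a, Upk1b, Upk2 and Upk3a) rose in severe kidneys by log2 differences of 3.17 to 3.84 over controls, and none passed in mild or moderate kidneys. The mean of the 4 was 0.72 ± 0.58 (SD, n = 6) in controls, 1.18 ± 1.38 (n = 7) in mild, 2.30 ± 0.72 (n = 5) in moderate and 4.19 ± 0.62 (n = 6) in severe kidneys. Over the 18 mgb-/- kidneys, this mean correlated with Gjb6 at r = 0.99, with Sprr1a at r = 0.99 and with Ivl at r = 0.94 (Spearman rho 0.97, 0.98 and 0.94; permutation test, two-sided, p = 1e-05 for each, the smallest that 100000 permutations give; adjusted p = 3.33e-05 over 20 relations). Leaving out the 2 kidneys farthest from the median gave r = 0.98, 0.99 and 0.94, and within the 3 slides of 6 mgb-/- kidneys r lay between 0.91 and 0.99 for these genes. Within a grade, r over the 7 mild kidneys was 0.98 for Sprr1a, 0.98 for Gjb6 and 0.87 for Ivl, and over the 6 severe kidneys 0.96, 0.94 and 0.70.

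Sprr2f and Sprr2g followed the uroplakins less closely, with r = 0.59 (permutation p = 0.00941, adjusted p = 0.00941) and r = 0.69 (permutation p = 0.00169, adjusted p = 0.00259), and rho 0.66 and 0.69. Without the 2 farthest kidneys r was 0.48 and 0.62, so that the relation of Sprr2f no longer passed (permutation p = 0.0569). Within slides r was 0.59, 0.80 and 0.36 for Sprr2f and 0.68, 0.86 and 0.55 for Sprr2g, of which the 0.86 alone passed. Within the mild grade r was 0.86 for Sprr2f and 0.77 for Sprr2g, with 4 and 2 of the 7 kidneys not above background, and within the severe grade 0.23 and 0.39. The difference between these correlations and those of Sprr1a, Ivl and Gjb6 was not tested.

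Against the uroplakin mean of the same kidney, Ivl rose further than the uroplakins did in the main processing. The level of Ivl minus that mean was higher by 2.08 in severe kidneys than in controls (exact permutation test, two-sided, p = 0.00217, the smallest the design allows; adjusted p = 0.0144 over 10 tests). Sprr1a and Gjb6 exceeded the uroplakin rise by only 0.45 (exact permutation adjusted p = 0.0144) and 0.59 (exact permutation adjusted p = 0.0216). For Sprr2g and Sprr2f, whose controls were not above background, the bound on the rise exceeded the uroplakin rise of 3.47 by 1.63 and 0.08 on the log2 scale, a description with no test. Between severe and mild kidneys the differences of Sprr1a, Ivl and Gjb6 ran from -0.07 to 0.21 and none passed (exact permutation adjusted p from 0.713 to 0.72). These tests were chosen after the values were seen and were run on the main levels only. Under alternative settings the severe rise over controls was 3.46 to 5.55 for Ivl, 3.16 to 4.06 for Gjb6 and 3.75 to 4.06 for Sprr1a. The uroplakin rise is not given under those settings, so whether the excess holds there was not tested. The bounds for Sprr2g and Sprr2f also belong to the main levels.

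**Figure D3:**
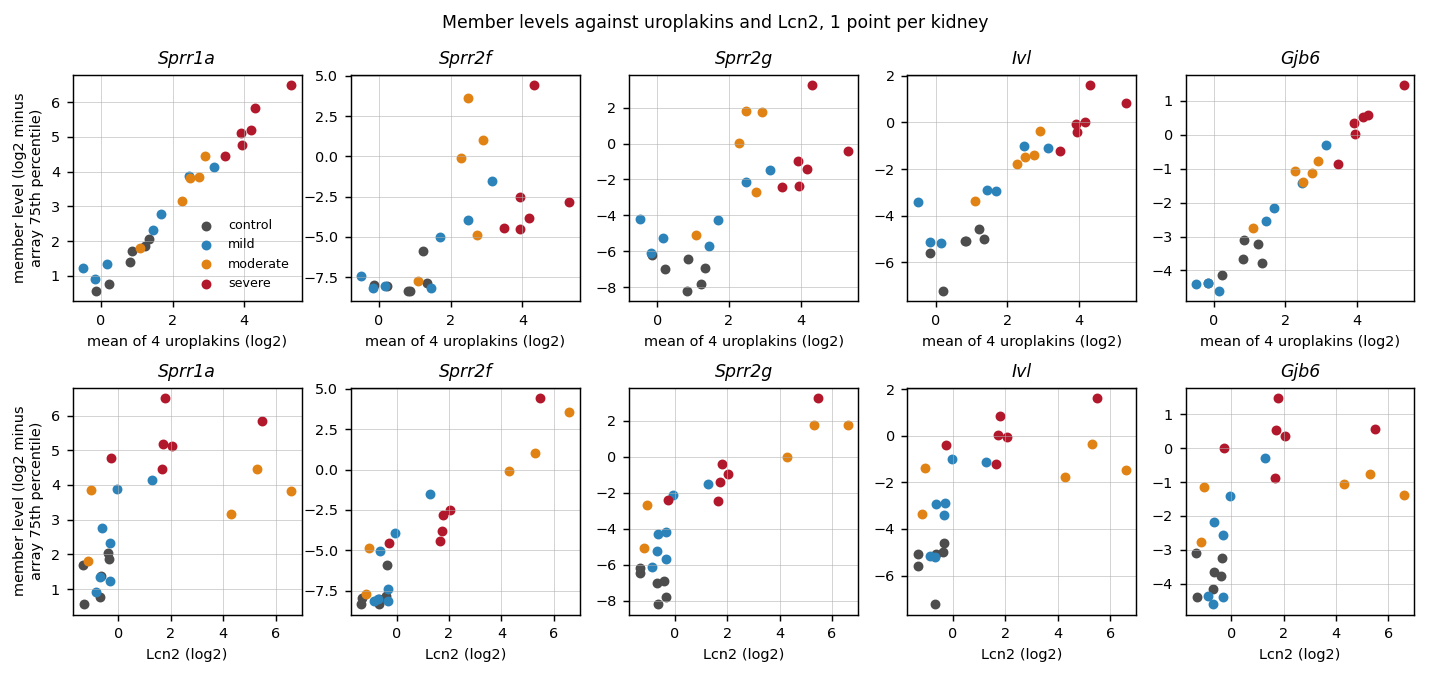
Levels of the 5 tested genes against the mean of 4 uroplakins (top) and against Lcn2 (bottom), 1 point per kidney, colored by group, all as log2 signal minus the array's 75th percentile. Among mgb-/- kidneys Sprr1a, Ivl and Gjb6 rise with the uroplakins, while controls lie lower in Ivl for their uroplakin mean. The kidneys brightest in Sprr2f and Sprr2g are those brightest in Lcn2, a contrast by which the study had already picked both genes.

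Lcn2, a secreted protein used as a marker of tubular injury, stood between -1.16 and 2.05 in 14 of the mgb-/- kidneys and between 4.29 and 6.59 in the other 4, so no correlation over all 18 is given. Those 4 were moderate kidneys 1, 3 and 4 (6.59, 4.29 and 5.30) and severe kidney 5 (5.48), the same kidneys that led Sprr2f. The study had already picked Sprr2f and Sprr2g by comparing Lcn2-high with Lcn2-low mgb-/- kidneys in these same data. This overlap is therefore not an independent result. Havcr1, a second tubular injury marker, was at 1.81, -0.05, 1.93 and 4.16 in those 4 kidneys and no higher than -0.31 elsewhere. Their uroplakin means were 2.48, 2.28, 2.91 and 4.31, of which the 2.91 was the highest of the moderate group and the other 3 lay among the remaining kidneys of their grade. Among the 14 kidneys below the gap, Lcn2 correlated with Sprr2g at r = 0.79 (rho 0.83; permutation p = 0.00138, adjusted p = 0.0023) and with Sprr2f at r = 0.75 (rho 0.78; permutation p = 0.00255, adjusted p = 0.00319), but also with Sprr1a at r = 0.77, Gjb6 at r = 0.74 and Ivl at r = 0.73. Without the 2 farthest kidneys these values lay between 0.63 and 0.70, and each slide held too few of the 14 for a test. In the 7 mild kidneys alone r lay between 0.77 and 0.83, with Sprr2f above background in 3 of them. In the 5 severe kidneys of the 14 it was 0.61 for Sprr2g and 0.65 for Sprr2f. For Sprr1a, Gjb6 and Ivl it was 0.32, 0.23 and 0.23 there. The values within a grade were not tested. Lcn2 and Havcr1 did not pass in severe kidneys against controls (log2 differences 2.86 and 2.23, adjusted p = 0.0692 and 0.117).

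Over the 18 mgb-/- kidneys, the genes whose pattern was most like that of Sprr1a were Tmem40, Upk1b and Grhl3 (r = 0.996, 0.994 and 0.994 among 27657 compared). Those most like Gjb6 were Cers3, Fer1l4 and Upk1a (r = 0.989, 0.987 and 0.986). For Ivl, the named gene among the closest 3 was Sfn, which encodes stratifin, an epithelial 14-3-3 protein (r = 0.972), beside 2 unnamed probes. Sprr2f and Sprr2g were closest to each other (r = 0.970), then to the mucin gene Muc4 (r = 0.954 and 0.945), and next, for Sprr2f, to Ereg, which encodes the EGF receptor ligand epiregulin (r = 0.954), and, for Sprr2g, to Dcdc2a (r = 0.942). Between the groups of members, r was lower, from 0.64 (Sprr2f with Gjb6) to 0.81 (Sprr2g with Ivl), while Sprr1a, Ivl and Gjb6 had r from 0.95 to 0.97 among themselves. These correlations share the grade of the kidneys and are a description. Sprr2f was above background in 13 of the 18 kidneys and Sprr2g in 16, while Muc4 and Ereg were not in many of them. Among the 18, Muc4 was highest in moderate kidneys 1, 3 and 4 and severe kidney 5, the kidneys that led Sprr2f. The r of Sprr2f and Sprr2g therefore mixes values at background with a few bright kidneys.

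The other genes of the complex and of envelope assembly were counted list by list. Of 26 other genes of the epidermal differentiation complex with a probe (loricrin, filaggrin-type, trichohyalin and late cornified envelope genes), 13 passed the filter, and in severe kidneys 0 rose and 2 fell: Tchh by 1.05 (SE 0.23, adjusted p = 0.00701) and Tchhl1 by 1.68 (SE 0.47, adjusted p = 0.0208). Loricrin (Lor), the main envelope protein of epidermis, was measured in all 24 kidneys and differed by 0.21 (SE 0.17, adjusted p = 0.423). The median log2 difference of the 13 was 0.21, beside 0.02 over all genes tested. Of all 27958 genes, 835 (2.99%) were called higher and 483 lower in severe kidneys, so 0 higher of 13 lies near that share.

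Of 17 measured genes that build or anchor the envelope, 4 rose in severe kidneys over controls and 0 fell, with a median of 0.71. Of all genes tested, 2.99% rose there. Cers3, a ceramide synthase of barrier lipids, rose by 3.87 (SE 0.52, adjusted p = 0.00015), and Pkp1, a desmosomal plaque protein, by 3.81 (SE 0.48, adjusted p = 9.57e-05). Periplakin (Ppl) rose by 1.40 (SE 0.38, adjusted p = 0.0199) and corneodesmosin (Cdsn) by 1.26 (SE 0.29, adjusted p = 0.00896). Tgm1, the transglutaminase that cross-links Ivl, was -0.88 (SE 0.23, adjusted p = 0.0169), under the 2-fold minimum, and the related Tgm3 was -0.27 (adjusted p = 0.437).

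Among regulators of cornification, 8 of 17 rose in severe kidneys, against 2.99% of all genes tested, and 0 fell, with a median of 1.07. Grhl3 and Grhl1, Grainyhead-like factors of barrier formation, rose by 3.72 (SE 0.48, adjusted p = 0.000111) and 2.38 (SE 0.35, adjusted p = 0.000298). The AP-1 genes Fos, Junb and Jun rose by 4.13 (SE 0.66), 2.33 (SE 0.40) and 1.56 (SE 0.27). They were also higher in mild kidneys, where Ivl alone of the tested members was called. Whether these factors act on the members was not tested. Grhl1 and Grhl3 alone of this list passed in severe against mild kidneys. Klf4 and Trp63 differed by 0.48 and -0.07 and did not pass in severe kidneys.

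In the neighboring S100 genes, 4 of 12 rose in severe kidneys, against 2.99% of all genes tested, and 0 fell, with a median of 1.02. S100a6 and S100a14 rose by 2.67 (SE 0.45) and 2.23 (SE 0.50).

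**Figure D4:**
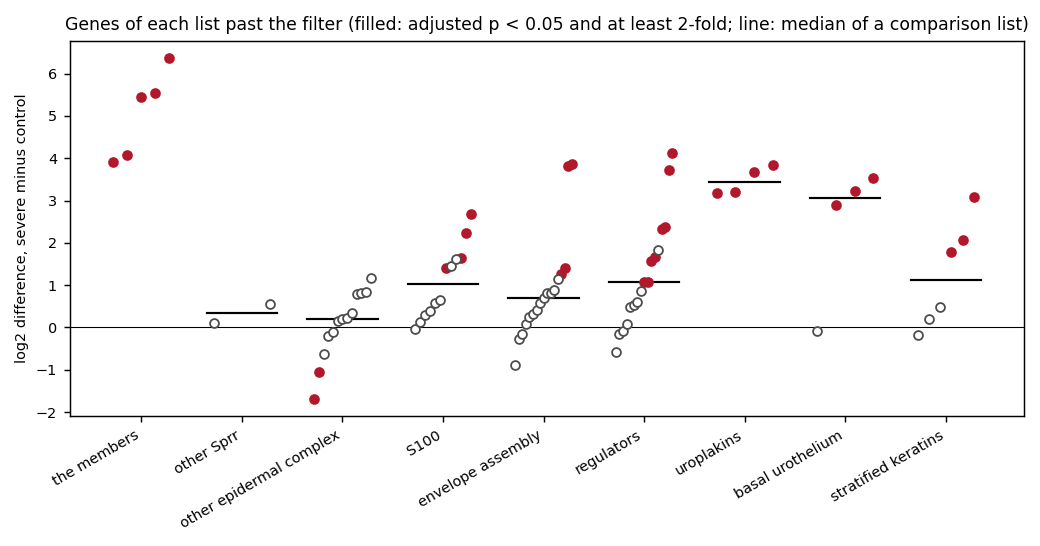
Log2 difference between severe and control kidneys for every measured gene of each list; filled points met both thresholds, and lines give the median of each comparison list. The 5 tested members lie between 3.92 and 6.37 and the 4 uroplakins between 3.17 and 3.84, whereas most other genes of the epidermal complex lie near 0. Sprr2f and Sprr2g had no control above background, so their heights depend on background values and on the processing (2.36 and 2.94 with normexp).

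Among other Sprr genes, Sprr2i, Sprr2j-ps, Sprr2k and Sprr3 were above background on no array. Sprr4 differed by 0.56 (SE 0.63, adjusted p = 0.58) in severe kidneys. Sprr2a2 had 3 probes that disagreed: the brightest, used for the gene, stood between 7.11 and 7.61 on every array, a second went from 0.22 ± 1.02 (SD, n = 6) in controls to 2.63 ± 1.06 (n = 6) in severe kidneys, and the third was above background in 1 control, 1 moderate and 3 severe kidneys. No statement on Sprr2a2 is made from them.

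Markers of other tissues were read beside these results. Basal urothelial keratins rose in severe kidneys with the members: Krt14 by 3.53 (SE 0.49), Krt5 by 3.22 (SE 0.70) and Krt15 by 2.89 (SE 0.38). The fourth gene of that list, Trp63, a transcription factor of basal epithelial cells, was above background in every kidney and did not pass (-0.07, SE 0.18, adjusted p = 0.827). The summed signal of the 4 genes, to which Trp63 gave the most in controls (mean level 3.06), ran from 8.62 to 9.97 in controls and from 12.0 to 31.5 in severe kidneys. The summed uroplakin signal ran from 5.91 to 17.2 in controls and from 67.3 to 220.6 in severe kidneys, without overlap. Whether the share of urothelium in the sample moved with the grade was not tested.

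Of 5 epidermis and hair markers with a probe, Krt2 was above background in all 24 kidneys, with means of -3.50 ± 0.98 (SD, n = 6) in controls and -2.96 ± 0.51 (n = 6) in severe kidneys. Krt25 was above background in no kidney, Krt27 in 1 control alone and Krt1 in 1 severe kidney that was not severe kidney 5 (-7.40 there, not above background), and the 2 genes that could be tested, Krt2 and Krt71, did not pass in severe kidneys (log2 differences 0.54 and 0.49, adjusted p = 0.303 and 0.447). Their summed signal over 5 genes was 0.05 to 0.23 in controls and 0.09 to 0.25 in severe kidneys. Of 6 keratins of wet stratified or activated epithelia, 3 were called higher in severe kidneys, where 2.99% of all genes tested were. Krt13, above background in every kidney, rose by 2.07 (SE 0.34, adjusted p = 0.000854). Krt17 was above background in 1 control (-2.56, the other 5 no higher than -7.54) and 4 severe kidneys (adjusted p = 0.0244). Krt4 was above background in no control and in 2 mild, 1 moderate and 3 severe kidneys, so it passed the filter through mgb-/- kidneys alone. Its log2 difference in severe kidneys was 1.78 (SE 0.52, limma adjusted p = 0.0266). With the control mean set as for Sprr2f, the difference was 1.71-fold, under the 2-fold minimum. The severe mean behind that value includes kidneys not above background. Severe kidney 5 held the highest Krt17 and Krt6a levels of all kidneys (-0.44 and -2.81) and, among genes chosen after their values were seen, the highest Serpinb2 (1.03) and Crct1 (-1.25).

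Of 3 skeletal muscle genes, Ckm and Myh4 were above background in no kidney, and Acta1, a skeletal muscle actin, was above background in all 24. It was higher in severe kidneys than in controls by 1.64 (SE 0.40, adjusted p = 0.0112) and in all mgb-/- kidneys by 1.24 (SE 0.35, adjusted p = 0.0231). The summed signal of the 3 was 0.03 to 0.11 in controls and 0.13 to 0.42 in severe kidneys, and its part in the members' rise was not tested. Leukocyte, fat and adrenal lists had 0 genes called by limma in any of the 7 comparisons, although all 3 measured adrenal genes had an unadjusted p under 0.05 in mild kidneys against controls. Adrenal Cyp11a1 was above background in 5 mild and 2 moderate kidneys and in no control or severe kidney. Of the kidneys that led Sprr2f, it was above background in moderate kidneys 1 (3.37) and 3 (-2.38). It was not above background in moderate kidney 4 (-7.74) and severe kidney 5 (-6.90). The part of adrenal tissue in the members' levels was not tested.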

How the data were processed

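Total RNA of 24 whole kidneys was hybridized to Agilent single-color mouse arrays (8 a slide) and scanned with Feature Extraction 10.10, per the file headers. The deposited scanner files give intensity: the processed signal, already corrected for background by the scanner software, and the median signal and background. The authors also deposited a table of normalized signal values, used as an alternative. Control and outlier spots were left out, and log2 of the processed signal minus each array's 75th percentile was tested with limma 3.58.1 in R 4.3.3, Benjamini-Hochberg adjusted over all 27958 genes. Tested probes were well above background on at least 5 of 24 arrays (38834 of 55681 probes), with the brightest probe per gene. RefSeq accessions named 26762 probes, and 28919 stayed unnamed. mgb-/- against control used 2 groups, and the other 6 comparisons shared 1 fit of 4 groups. The number of arrays limits the precision. Background-corrected (normexp) values used the median signal, since the files used here hold no mean signal. Named genes were the 10 members, up to 5 called genes of each list by size, the 3 genes most like each member, and defining markers. The members and lists were chosen with earlier results of these data known. The fits were tested on simulated data.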

Additional observations from a re-analysis of the deposited data

Results flagged for a closer look

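Of 40 combinations of member and group, 10 held a kidney far from the rest of its group, where chance gives about 1 in 20. Severe kidney 5 gave 6 of them, high in Sprr1b (-1.66), Sprr2d (-0.062), Sprr2e (-1.35), Sprr2f (4.43), Sprr2g (3.27) and Sprr2h (-3.31). The next severe kidney stood at -6.23, -6.55, -6.89, -2.53, -0.42 and -6.71 for these genes. Moderate kidney 1 stood apart in Sprr2d (-4.50, the next at -7.10). The remaining 3 were not above background: mild kidney 2 in Sprr2e (-6.15), mild kidney 1 in Sprr2h (-7.07) and control 6 in Sprr2f (-5.88).

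The change against control differed between severe and mild kidneys in a direct limma contrast for Sprr1a (2.94, adjusted p = 0.00725), Ivl (3.22, adjusted p = 0.0203) and Gjb6 (3.18, adjusted p = 0.00902). None of the 3 passed when severe and mild kidneys were fitted without the other groups (adjusted p = 0.0787, 0.139 and 0.123).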

How the results depend on the processing

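Counts of called members (of 10) depended most on the settings in mild and moderate kidneys. In severe kidneys against controls the count of 5 fell to 2 with probes above background on all 24 arrays only, which removed Sprr2f, Sprr2g and Ivl, and to no fewer than 4 with any kidney left out. In all mgb-/- kidneys the count of 4 fell to 2 with those probes and to 3 with quantile normalization (without Gjb6) or normexp (without Sprr2g), and ranged from 2 to 4 with a kidney left out. In mild kidneys the count of 1 became 0 under quantile normalization, median scaling, normexp, the authors' table, no filter, probes above background on all arrays or slide as a block, became 2 with array weights or the compared groups alone, and ranged from 0 to 1 with a kidney left out. In moderate kidneys the count of 2 became 1 with normexp, 0 with probes above background on all arrays, 0 with the replicate number as a block, 5 with array weights and 5 at an adjusted p under 0.1, and ranged from 0 to 5 with a kidney left out. Moderate against mild became 2 (Sprr2f and Sprr2g) with array weights. Severe against mild, 3, became 0 with the compared groups alone and 0 without severe kidneys 4 and 5. The cause was not tested.

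The difference of severe minus moderate kidneys changed sign for Sprr2g, to -0.19 with normexp, -0.081 in the authors' table, -2.27 with array weights and -0.72 without severe kidneys 4 and 5, and ranged from -0.95 to 0.77 with a kidney left out; that of Sprr2f ranged from -2.19 to 0.64. No other member difference changed sign. The uroplakin correlation of Sprr2f no longer passed within slides (r = 0.59, 0.80 and 0.36) or without the 2 farthest kidneys (r = 0.48), nor that of Sprr2g within 2 slides (r = 0.68 and 0.55). In severe kidneys normexp lowered Sprr2f to 2.36 (adjusted p = 0.118) and the authors' table to 2.73 (adjusted p = 0.132), with Ivl between 3.46 and 5.55 under all alternatives. Replicate numbers shared by groups did not pair the kidneys (median r 0.005 over 33 pairs, range -0.55 to 0.65), and the block ended the severe-against-control call of Sprr2f (adjusted p = 0.0746), the severe-against-mild call of Ivl (0.105) and the moderate-against-control calls of Sprr2g and Ivl (0.0738 and 0.0525). Median scaling moved the median of all genes by -0.14 to -0.17 against controls, far less than any called member. Signals near background kept 5 of 10 members from being tested. They also limit Sprr2f and Sprr2g, with 0 of 6 controls above background, and Ivl, with 5 of 6.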
